A study of Mus musculus with 4 samples.

Results

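The cells described here were 107 of 15416 cells from mouse inner ear organoids, proposed as Fabp7 glial or radial-glia-like cells. They were chosen by measured values. A barcode needed at least 1000 detected genes and at most 15% of its UMIs (unique molecular identifiers, which count captured RNA molecules) from mitochondrial genes. It then needed at least 3 UMIs of Fabp7 and at least 2 UMIs summed over Gfap, Aqp4 and Bcan. The organoids came from the Atoh1-nGFP embryonic stem cell line, and that line, the organoid tissue and an otic lineage label were shared by all 4 libraries. There was 1 library for each group: 16 days in vitro, 20 days in vitro, 21 days with high GFP signal, and 21 days with low GFP signal. The labels describe dissociated cells sorted by GFP but name a GFP class at 21 days alone, and a description field calls the data single-nucleus although the protocol speaks of cells. No other genotype or treatment is named, and whether a library pools organoids is not given in the sources used here. Since each group is a lone library, groups were compared by values and not by a test. The intervals below are 95% exact intervals that cover counting error only.

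As background, Fabp7, also called brain lipid-binding protein, carries fatty acids inside cells and is a classic gene of radial glia, the stem cells that span the wall of the developing neural tube, and of the astrocytes they give rise to. Gfap is an intermediate filament protein of astrocytes, Aqp4 a water channel that astrocytes place at their endfeet, and Bcan (brevican) a proteoglycan of the neural extracellular matrix. Outside the central nervous system, Fabp7 is also made by Schwann cell precursors, by the satellite glia of ganglia and by the ensheathing glia of the olfactory nerve, which carry Sox10 in place of many astrocyte genes.

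Fabp7 lies on chromosome 10 from 57784881 to 57788450, and Gfap on chromosome 11 from 102887336 to 102900912 on the minus strand (GENCODE vM21, GRCm38). Their promoters are shown because each holds a short motif of a factor family whose RNA is described further on. RefSeq promoters of build GRCm38.p6, 250 bases before and 50 bases after the start, were searched on both strands for the nuclear factor I half-site TTGGC in the Fabp7 promoter (chr10:57784673-57784972, plus strand) and for the STAT motif TTCNNNGAA in the Gfap promoter (chr11:102897151-102897450, minus strand). Capitals mark the match, and both sequences read 5′ to 3′ along the gene.
Fabp7: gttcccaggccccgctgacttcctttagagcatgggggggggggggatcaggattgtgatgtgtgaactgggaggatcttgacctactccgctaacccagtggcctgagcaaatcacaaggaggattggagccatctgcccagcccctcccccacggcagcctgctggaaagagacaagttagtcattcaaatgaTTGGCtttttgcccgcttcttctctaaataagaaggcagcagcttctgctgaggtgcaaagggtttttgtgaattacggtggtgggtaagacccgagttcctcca
Gfap: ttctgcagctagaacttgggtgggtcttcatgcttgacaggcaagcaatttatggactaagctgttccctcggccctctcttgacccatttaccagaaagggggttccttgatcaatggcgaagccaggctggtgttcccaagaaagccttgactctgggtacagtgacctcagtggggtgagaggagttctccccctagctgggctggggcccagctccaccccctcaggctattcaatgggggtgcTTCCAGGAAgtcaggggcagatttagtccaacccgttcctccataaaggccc
Each promoter held 1 match, at bases 196 to 200 for Fabp7 and at bases 249 to 257 for Gfap, where it spans the start. TTGGC was in 46.7% of the 32851 promoters of the table and TTCNNNGAA in 8.30%, so a match describes the letters and not a bound site.

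The 4 libraries held 3496 cells at day 16, 4553 at day 20, 3544 at day 21 with high GFP and 3823 at day 21 with low GFP after the filters on barcodes. Total UMIs of the kept cells were between 45954382 and 113244855. Libraries shared 21 barcodes over all pairs, and no chosen cell shared its barcode with another library. Median UMIs per cell were 41939 in chosen cells against 15555 in other cells at day 16, and 14728 against 8962 at day 20. The medians were 29944 in chosen cells against 29146 in other cells with high GFP, and 28764 against 22493 with low GFP, so chosen cells were deeper than other cells in the median of every library.

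Chosen cells were rare at the early times and most frequent in the low GFP library. They numbered 3 at day 16, 8 at day 20, 22 at day 21 with high GFP and 74 at day 21 with low GFP. Their share of the library was 0.0858% (0.0177 to 0.251) at day 16 and 0.176% (0.0759 to 0.346) at day 20. At day 21 it was 0.621% (0.389 to 0.938) with high GFP and 1.94% (1.52 to 2.42) with low GFP. The counting intervals of the day 21 shares do not overlap each other, while those of days 16 and 20 do. When every cell was thinned to 3000 UMIs and 1 UMI of Fabp7 and 1 of the other rule genes were required, the shares were 0.0316%, 0.100%, 0.455% and 1.23% in the same library order, after leaving out 334, 559, 31 and 93 shallower cells. The order of the libraries was the same in that setting, which changes the thresholds along with depth.

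Hair cells were taken as a reference expected to lack these genes. Whether their UMIs of these genes came from free RNA was not tested. In all cells that passed the hair cell gate, with chosen cells and cells of other gates kept in, 4.20% at day 16, 2.36% at day 20, 2.40% with high GFP and 3.92% with low GFP had at least 1 Fabp7 UMI. At least 1 UMI of Gfap, Aqp4 or Bcan was in 4.96%, 3.83%, 10.5% and 10.1% of them, in the same order, at median depths of 22943, 12430, 30936 and 25784 UMIs. In hair cells that were not chosen and passed no other gate, the Fabp7 shares were 1.46%, 1.59%, 1.56% and 1.66%, and these leave out cells positive for the rule genes. Over all kept cells, 12.1%, 8.85%, 6.09% and 16.7% had a Fabp7 UMI, above the hair cell share in every library. At the thresholds themselves, 10 chosen cells had exactly 3 Fabp7 UMIs and 14 had exactly 2 UMIs of the other rule genes. Just outside, 11 cells had 2 Fabp7 UMIs with enough of the others, and 48 had enough Fabp7 with 1 UMI of the others.

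**Figure D1:**
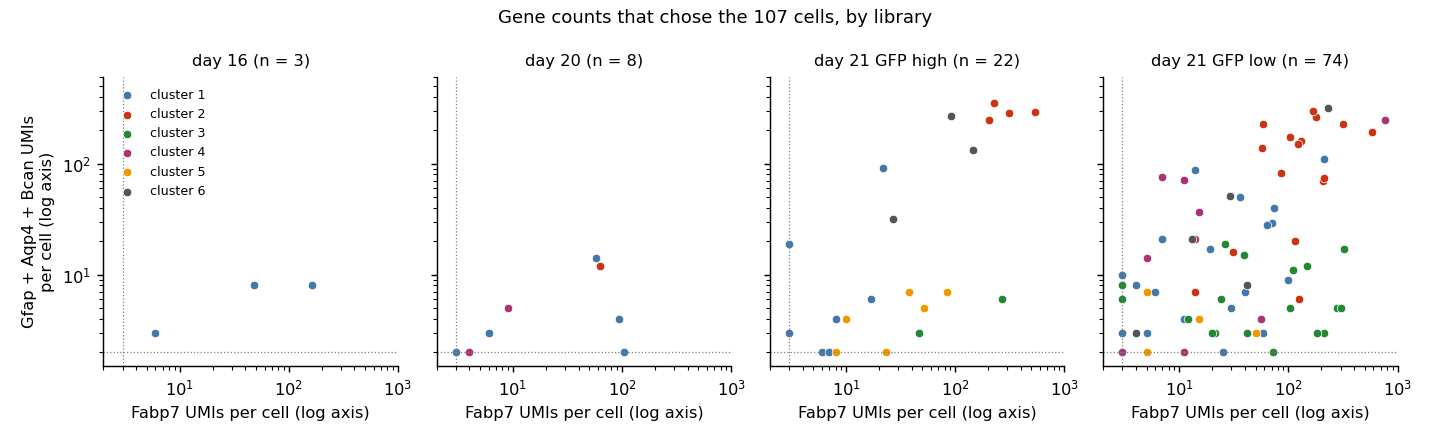
Each point is 1 chosen cell, with its Fabp7 UMIs across and its summed Gfap, Aqp4 and Bcan UMIs up the page, both on log axes; panels are the 4 libraries, colours are the 6 clusters described further on, and dotted lines are the thresholds of 3 and 2 UMIs. Cells reach 762 Fabp7 UMIs and 348 UMIs of the other genes, and the highest cells are in the day 21 libraries.

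The genes of the rule are given as a description, since they chose the cells. Fabp7 had a median of 48 UMIs per chosen cell at day 16 (range 6 to 164), 33.5 at day 20 (3 to 104), 32.5 with high GFP (3 to 543) and 37.5 with low GFP (3 to 762). In CPM, the summed UMIs of a gene scaled to a fixed total of UMIs per group of cells, Fabp7 was at 1843, 2804, 2700 and 2512 in chosen cells of these libraries, against 29.4, 41.8, 13.8 and 26.2 in the other cells. The Fabp7 level of the chosen cells covers only cells that passed its threshold, and rests on 3 cells at day 16 and 8 at day 20. Gfap was found in 2 of 3 cells at day 16, 3 of 8 at day 20, 17 of 22 with high GFP and 60 of 74 with low GFP. Its level was 110, 148, 1459 and 930 CPM in chosen cells in that order, against at most 1.40 CPM in other cells of any library. The summed Gfap level was thus lower in the few early cells than at day 21. The median cell did not follow it, at 5 Gfap UMIs at day 16, 0 at day 20, 4.5 with high GFP and 6.5 with low GFP. The early levels rest on 13 UMIs at day 16 and 18 at day 20. Cluster 2, described further on, held 2132 Gfap UMIs and no cell of day 16. Aqp4 was at 16.9, 132, 571 and 325 CPM in chosen cells, and Bcan at 33.8, 82.2, 185 and 127 CPM.

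The 3 glial genes did not mark the same cells. Of the 107 cells, 34 held UMIs of Gfap, Aqp4 and Bcan together. Gfap without the others was in 21 cells, Bcan alone in 13 and Aqp4 alone in 8. Gfap with Bcan was in 22 cells, Gfap with Aqp4 in 5, and Aqp4 with Bcan in 4. Of the 2 given markers outside the rule, Sparcl1, a secreted matrix protein of astrocytes, was in 90 cells, Pax6, a transcription factor of neural progenitors, in 52, and 49 cells held both. Sparcl1 was at 533, 395, 969 and 696 CPM in chosen cells at day 16, day 20, high GFP and low GFP, against 30.3, 58.0, 39.8 and 62.1 CPM in other cells. Pax6 was at 25.4, 82.2, 80.4 and 42.2 CPM in chosen cells, against 2.55, 12.6, 2.29 and 7.90 CPM in other cells. Both were higher in chosen cells than in other cells in every library. The early Pax6 levels rest on 3 UMIs in 1 of 3 cells at day 16 and 10 UMIs in 2 of 8 cells at day 20.

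Against the other cells, gene differences were called in the 2 libraries with at least 20 chosen cells, where the CPM ratio was 2 or more either way with an interval that excludes 1 in both. Of 11583 genes at 10 CPM or more, 655 (5.65%) were higher and 778 (6.72%) were lower in chosen cells. The same genes of the same cells made the choice, so these counts describe the cells and are no test. Counting the highest genes outside the rule, Serpina3n, an acute-phase protease inhibitor, was at 157 CPM in chosen cells against 1.40 in other cells with high GFP, and at 85.2 against 2.10 with low GFP. Rfx4, a transcription factor of neural progenitors and astrocytes, was at 61.5 CPM in chosen cells against 0.258 in other cells with high GFP, and at 61.5 against 0.702 with low GFP. Prph (peripherin), a neuronal intermediate filament best known from peripheral neurons, was at 407 against 4.78 CPM with high GFP and at 312 against 19.4 with low GFP. Pmp22, a membrane protein of Schwann cells, was at 207 against 5.10 CPM with high GFP and at 132 against 13.5 with low GFP. The leading genes thus joined astrocyte genes with genes of peripheral glia and neurons, and Fxyd6, Cpne2, Col23a1, Angptl4 and Mmd2 were among them.

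The genes lowest in chosen cells belong to otic and skin epithelium and to connective tissue. Oc90, a major protein of otoconia, was at 2.51 CPM in chosen cells against 254 in other cells with high GFP, and at 16.3 against 301 with low GFP. Otol1, another otoconial protein, was at 6.28 against 400.3 CPM with high GFP and at 105 against 439 with low GFP. The basal keratin Krt14 was at 1.26 against 58.9 CPM with high GFP and at 4.64 against 89.6 with low GFP. Of 12 supporting cell and otic epithelium genes, 10 were lower in chosen cells and none was higher, with Otog and Lfng outside the call, and of 12 hair cell genes, 10 were lower, with Atoh1 and Pvalb outside it. All 6 epidermis genes were lower. The otic lineage label of the libraries thus goes against the low otic genes of these cells.

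Astrocyte genes gave the largest number of higher genes of any list, though not the largest share or median. Of the 20 of 22 that reached 10 CPM, 14 were higher in chosen cells and none was lower, with a median log2 ratio of 1.998 beside -0.00 over all genes. Mlc1, a membrane protein of astrocyte endfeet, was at 50.2 CPM in chosen cells against 0.0356 in other cells with high GFP, and at 42.6 against 0.0929 with low GFP. The glutamate transporter Slc1a2 was at 269 against 5.78 CPM with high GFP and at 142 against 26.4 with low GFP. Aldh1l1, a folate enzyme widely used as an astrocyte marker, was at 25.1 against 0.249 CPM and at 30.2 against 1.33 CPM in the same order. Apoe, the lipid carrier that astrocytes secrete, was at 2499 against 132 CPM with high GFP and at 1887 against 259 with low GFP. Among the 6 astrocyte genes outside the call, S100b was at 49.0 CPM in chosen cells against 119 in other cells with high GFP, and Clu at 122 against 201 CPM with low GFP. Genes of glutamate, potassium and water handling gave 7 of 13 higher, neural matrix genes 5 of 9 and reactive astrocyte genes 7 of 11, and none of these groups held a lower gene. The neural matrix group included Ncan and Vcan, proteoglycans related to brevican, and Ptn, a secreted growth factor at 4420 CPM in chosen cells against 693 in other cells with high GFP.

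Radial glia and neural stem cell genes were less uniform, with 8 of 20 higher, none lower and a median log2 ratio of 0.72. Vim, an intermediate filament of immature glia, was at 2417 CPM in chosen cells against 178 in other cells with high GFP, and at 2087 against 364 with low GFP. Hes5, a repressor downstream of Notch, was at 91.7 against 15.02 CPM with high GFP and at 139 against 30.4 with low GFP. Hopx, Dbi, Ednrb, Gli3, Ttyh1 and Sox3 were the others called. Sox2, a stem cell factor that hair cell progenitors and supporting cells also carry, was at 254 CPM in chosen cells against 398 in other cells with high GFP, and at 273 against 295 with low GFP. Nes, the intermediate filament nestin of neural stem cells, was at 12.6 against 6.37 CPM with high GFP and at 31.7 against 16.0 with low GFP, outside the call. Hes1, Sox1, Tnc and Id4 were outside the call as well.

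Among 14 gliogenic transcription factors, Nfia, Id3, Lhx2 and Rfx4 were higher and none was lower. Lhx2 UMIs were mostly in cluster 3, described below, where all cells passed the neuron gate. Without cells in the neuron or hair cell gate, a setting described below, 6 of 15 gliogenic factors were higher and 1 was lower. Nfia, the nuclear factor I member that starts glial development in the neural tube, was at 569 CPM in chosen cells against 243 in other cells with high GFP, and at 480 against 169 with low GFP. Nfib was at 505 against 225 CPM with high GFP and at 507 against 268 with low GFP, outside the call. Stat3, which binds the STAT motif searched for above, was at 123 against 150 CPM with high GFP and at 117 against 90.3 with low GFP. Socs3, a STAT3 target, was higher, at 392 against 101 CPM with high GFP and at 328 against 105 with low GFP, as was the cytokine receptor subunit Lifr. Of 9 cytokine and STAT3 genes these 2 were called.

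In other signalling groups, 6 of 15 BMP and Id genes were higher and none was lower. Id3, an inhibitor of proneural factors that BMP signals induce, was at 1222 CPM in chosen cells against 79.1 in other cells with high GFP, and at 794 against 104 with low GFP. Nog (noggin), a BMP antagonist, was at 55.3 against 8.502 CPM with high GFP and at 63.1 against 8.61 with low GFP, so an inhibitor and targets of the pathway were higher together. Notch genes were split: the receptors Notch1 and Notch2 and the repressors Hes5 and Hey2 were higher, Jag2, a ligand, and Mfng, a fringe enzyme, were lower, and 11 of 17 were outside the call. FGF genes gave 3 of 9 higher (the feedback inhibitors Spry2 and Spry4 and the target Etv4). Wnt genes gave 3 higher and 3 lower of 14. Of 5 hedgehog genes, the effector Gli3 was higher and the coreceptor Gas1 was lower.

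Genes of fatty acid and cholesterol handling, the wider function of Fabp7, gave 5 of 17 higher and 1 lower. Abca1, which exports cholesterol to Apoe, was at 85.4 CPM in chosen cells against 12.03 in other cells with high GFP, and at 84.8 against 15.2 with low GFP. Acsbg1, Acsl6 and Elovl5, enzymes that activate or lengthen fatty acids, were also higher, and Acsl3, another activating enzyme, was lower. The relative Fabp5 was at 1710 against 552 CPM with high GFP and at 1278 against 748 with low GFP, where the ratio is below 2, and Fabp3 was at 17.6 against 7.28 and at 21.3 against 47.5 CPM. Neither relative of Fabp7 was called.

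The regional genes called higher were listed for several positions along and across the neural tube. They were counted over all chosen cells together, and no cell was assigned to a region. Of 17 hindbrain and spinal Hox and related genes, 8 were higher and none was lower: Hoxd3, Hoxb4, Hoxd4, Hoxa5, Hoxc6, Hoxb7, Hoxb9 and Hoxc9. Hoxc9, a gene of the thoracic spinal cord, was at 43.9 CPM in chosen cells against 2.13 in other cells with high GFP, and at 39.9 against 3.29 with low GFP. Of 11 dorsal neural tube genes, Pax3, Msx2, Zic1, Zic4 and Zic5 were higher, with Pax3 at 69.1 against 2.78 CPM with high GFP and at 91.3 against 7.92 with low GFP. Of 5 genes listed for the ventral tube, Dbx2, Olig2 and Pax6 were higher, which mark its intermediate part and its motor neuron progenitors. Emx1 and Lhx2 of the forebrain list were higher as well, and their UMIs were mostly in cluster 3, described below. The retina list had no called gene among 3.

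**Figure D2:**
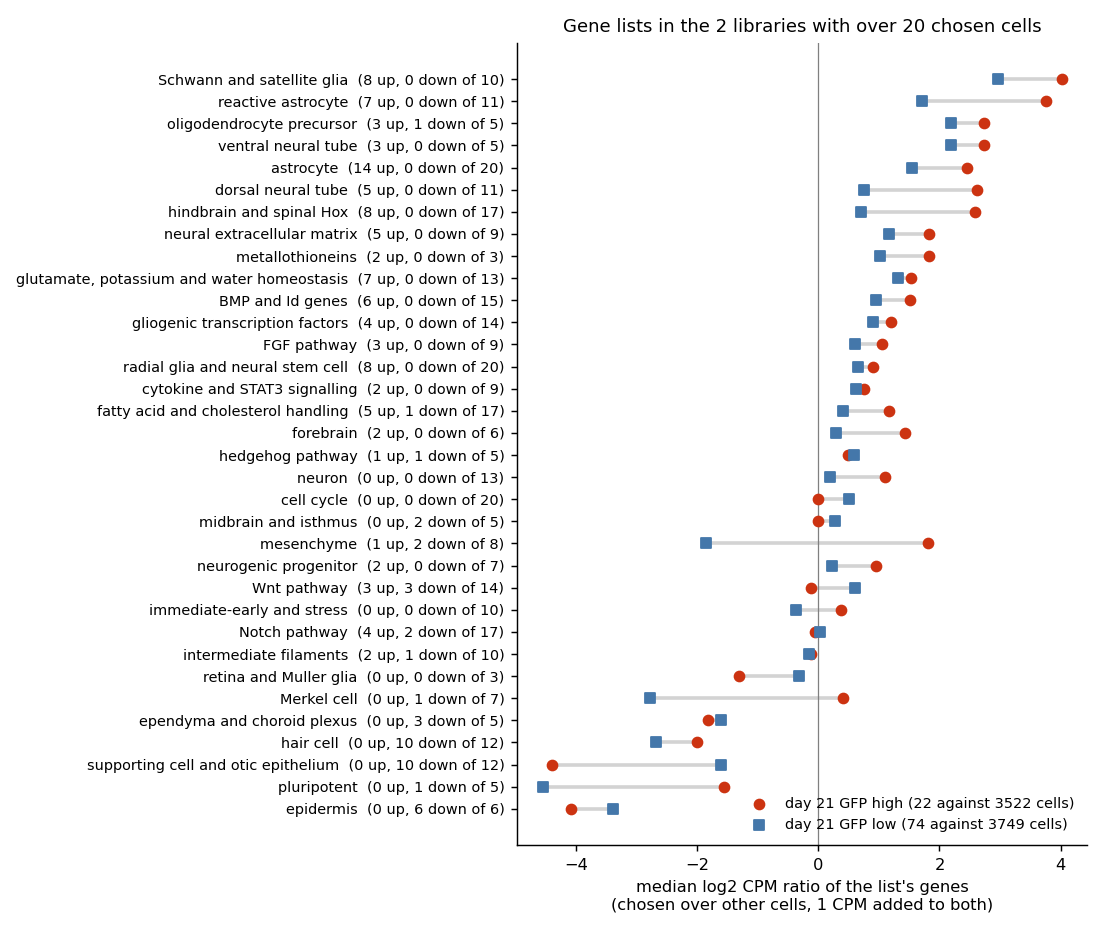
Each row is a gene list, and points give the median log2 CPM ratio of its genes in chosen over other cells (1 CPM added to both), red circles for day 21 high GFP (22 against 3522 cells) and blue squares for low GFP (74 against 3749 cells). Row labels count the genes called higher and lower in both libraries; Schwann, reactive astrocyte and astrocyte lists are at the top, and epidermis, supporting cell and hair cell lists are near the bottom.

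Other glial and neuronal genes were present too, and they bear on how far the label holds. Of 10 Schwann and satellite glia genes, 8 were higher and none was lower, with a median log2 ratio of 3.56. Of 5 oligodendrocyte precursor genes, Olig1, Olig2 and C1ql1 were higher and Pcdh15 was lower, while Pdgfra, a defining receptor of these precursors that was too low to be counted, was at 0 CPM with high GFP and 1.55 with low GFP. No neuron gene of 13 was called, with Stmn2 at 475 against 117 CPM with high GFP and at 662 against 575 with low GFP. Endothelial, microglial and melanocyte genes were all below the minimum level. Of the 107 cells, 37 also passed the neuron gate, 9 the hair cell gate, 9 the mesenchyme gate and 6 the supporting cell gate, and 54 passed none of them. Without the cells in the neuron or hair cell gate (13 left with high GFP and 41 with low GFP), a choice made after seeing the data, 797 of 11661 genes (6.83%) were higher and 1218 (10.4%) were lower than in other cells. Astrocyte genes gave 16 of 22 higher there. Neuron and hair cell lists are not counted in that setting, since they hold the genes that removed the cells. In the same cells Hox genes gave 11 of 18 higher and Schwann genes 7 of 10, while no forebrain gene of 6 was higher.

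Fabp7 was not limited to cells with the glial genes. In all, 503 kept cells had at least 3 Fabp7 UMIs and fewer than 2 UMIs of Gfap, Aqp4 and Bcan, of which 70 at day 16, 47 at day 20, 22 with high GFP and 148 with low GFP passed the neuron gate and no other. Their median Fabp7 was 4 UMIs at day 16, 6 at day 20, 7.5 with high GFP and 5 with low GFP, below the medians of the chosen cells given above. Chosen cells were higher than these Fabp7-only cells in 399 of 11354 genes (3.51%) and lower in 201 (1.77%). The groups were split by Gfap, Aqp4 and Bcan, so counts of genes that go with these describe the split and are no test. Astrocyte genes gave 12 of 20 higher, reactive astrocyte genes 9 of 11, BMP and Id genes 8 of 15, and all 3 metallothioneins were higher. Mt3, the metallothionein of brain, was at 819 CPM in chosen cells against 33.8 in Fabp7-only cells with high GFP, and at 376 against 23.2 with low GFP. Schwann genes gave 1 of 10 higher (Dhh, a hedgehog ligand of Schwann cells), beside a median log2 ratio of 0.84 over the list. Cell cycle genes gave 5 of 20 lower in chosen cells, with Top2a, a topoisomerase of dividing cells, at 10.0 against 206 CPM with high GFP and at 111 against 249 with low GFP.

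The chosen cells were a mixture. Clustering the 107 cells on their variable genes gave 6 clusters of 36, 21, 21, 11, 10 and 8 cells. The genes of a cluster define it, so what follows is a description with no test. Clusters 3 to 6 stayed whole at a finer resolution that gave 8 clusters, where cluster 2 kept 16 of 21 cells together and cluster 1 kept 13 of 36. A coarser resolution gave 4.

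**Figure D3:**
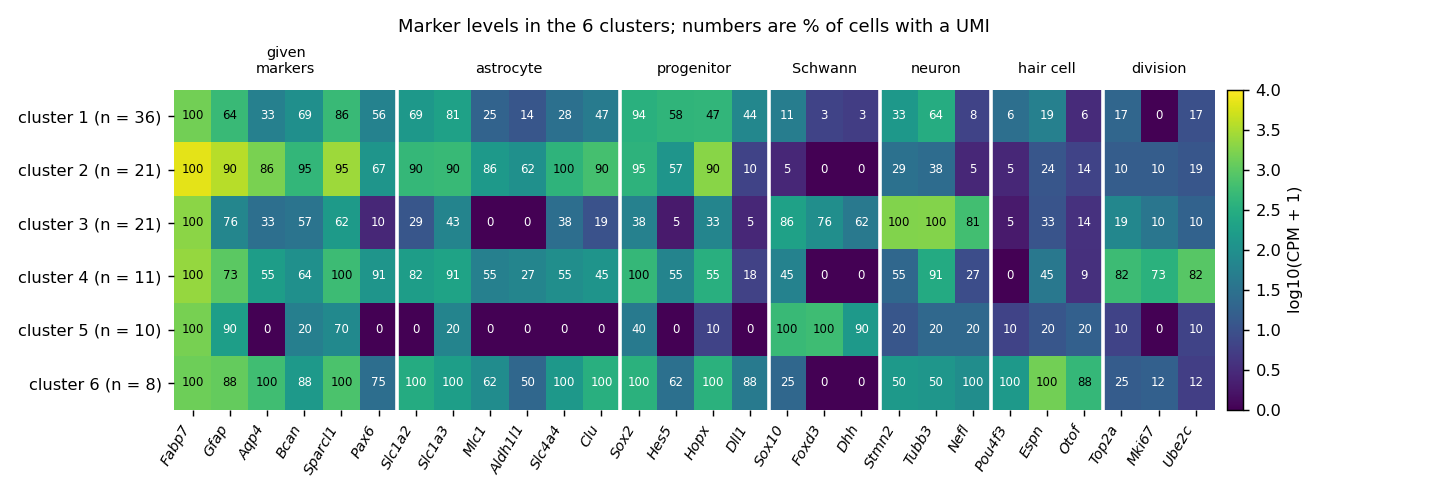
Colours give the level of each gene in the summed UMIs of a cluster as log10(CPM + 1), and the numbers in the cells give the percent of cells with at least 1 UMI; rows are clusters 1 to 6 and columns are grouped by cell type. Astrocyte genes are brightest in cluster 2, Sox10 and Foxd3 in clusters 5 and 3, neuron genes in cluster 3, hair cell genes in cluster 6 and division genes in cluster 4.

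Cluster 2 (21 cells, of which 16 were from low GFP, 4 from high GFP and 1 from day 20) was astrocyte-like. Aqp4, Mt3, Slc4a4 and Aldh1l1 were among its 10 leading genes, beside Lcat, Tagln, Sned1, Lxn, Prelp and Tm4sf1. Fabp7 was at 6808 CPM there, with 14 to 578 UMIs per cell, Gfap at 3767 CPM in 19 of 21 cells, Aqp4 at 1592 CPM in 18 and Bcan at 447 CPM in 20. The glutamate transporters Slc1a2 and Slc1a3 were at 468 and 493 CPM in 19 cells each. Foxd3, which marks peripheral glia, had no UMI in any of the 21 cells, where 3 UMIs would be 5.30 CPM. Pax6 was in 14 cells and Hopx, a gene of outer radial glia and of some astrocytes, in 19. All 21 cells passed no other gate, none was removed as a doublet, and their median depth was 1.14 times that of their library. S100b was in 4 of 21 cells and Gpr37l1 in 1, so late astrocyte genes were not all present, and the Gpr37l1 UMIs counted above came mostly from clusters 3 and 5.

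Levels in cluster 2 were compared between the sorted libraries, with genes of the rule as a description. Fabp7 was at 6869 CPM in its 4 high GFP cells and at 6702 CPM in its 16 low GFP cells, Gfap at 4202 and 3600 CPM, Aqp4 at 1637 and 1572 CPM, and Sparcl1 at 2682 and 2633 CPM. Pax6 was at 181 CPM in the high GFP cells and 93.8 CPM in the low GFP cells. The reporter transcript Egfp was at 4496 CPM in the high GFP cells and 820 CPM in the low GFP cells. The astrocyte genes Aldoc, Clu and Apoe were at 694, 649 and 5119 CPM over the cluster, and the spinal gene Hoxc9 was at 93.7 CPM in 12 of its cells.

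Cluster 1 was the largest, with 36 cells, and the only cluster with cells from day 16 (3), beside 5 from day 20, 7 from high GFP and 21 from low GFP. Hes5, the Notch ligand Dll1, Tfap2b, Sall3, Dcc, Dpysl4, Hoxa9, Egfp and Ccer2 were among its leading genes, and no fixed list holds enough of them to name it. Ccer2 ranked there through 2 high GFP cells, which held 5871 of its 5893 UMIs in the cluster. Of its neural progenitor genes, Hes5 was at 420.0 CPM in 21 cells, Pax3 at 199 CPM in 25 and Rfx4 at 136 CPM in 24. Nfia was found in all 36 cells, at 801 CPM, against 603 CPM in cluster 2. Fabp7 was at 1416 CPM and Gfap at 507 CPM, and a cell held a median of 15.5 Fabp7 UMIs, against 130 in cluster 2. Over 17 radial glia genes the levels of cluster 1 were at a median of 50.9% of those in cluster 2, and over 18 astrocyte genes at 19.1%. Both medians cover genes at 20 CPM or more in cluster 2, which leaves out genes high in cluster 1 alone, so they are not compared with each other. Olig1 and Olig2, which mark oligodendrocyte and motor neuron progenitors, were in 9 and 6 cells, of which 5 held both. Of the 36 cells, 10 passed the neuron gate, 3 the mesenchyme gate, 1 the hair cell gate and 1 the supporting cell gate, and 22 passed none.

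Cluster 4 (11 cells, 9 from low GFP and 2 from day 20) held dividing cells. Ube2c was at 915 CPM and Top2a at 552 CPM, each in 9 cells, and the summed cell cycle list had a median of 5446 CPM per cell, against 184 in cluster 1 and 157 in cluster 2. Pax6 was in 10 of 11 cells at 123 CPM, Sox2 in all 11 at 455 CPM, and Gfap in 8 at 988 CPM. Of the 11, 4 passed the supporting cell gate and 4 the neuron gate, and Otog, a gene of the otic epithelium, was at 447 CPM in 4 cells. Depth was 1.90 times the library median, and the part of depth in these values was not tested.

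Cluster 5 (10 cells, 6 from high GFP and 4 from low GFP) was Schwann and satellite glia-like. Sox10 was at 514 CPM and Foxd3, a neural crest and glial precursor factor, at 578 CPM, each in 10 of 10 cells. Kcna1, Foxd3, Art3, Fibin, Lgi4, Itga1, Ecel1, Gatm, Gjc3 and Col18a1 led it, of which Lgi4 is a signal from Schwann cells needed for myelination and Gjc3 a connexin of myelinating glia. Aqp4, Pax6, Sox9, Slc1a2 and Hes5 had no UMI in any of the 10 cells, and 3 UMIs would be 15.9 CPM. Gfap alone passed most of these cells through the rule, with a median of 2.5 UMIs in a cell and at most 7. Of the others, 1 cell held 7 Bcan UMIs and no Gfap UMI, and 1 held 3 Bcan UMIs and 1 Gfap UMI. Fabp7 was at 1537 CPM, against 1416 in cluster 1 and 1315 in cluster 6. The cells were shallower than the rest, at 0.728 times the library median, and none was removed as a doublet. Col1a1, a collagen of connective tissue, was at 1362 CPM in 4 cells, the 4 that also passed the mesenchyme gate.

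Clusters 3 and 6 joined genes of different cell types in the same barcodes. Cluster 3 (21 cells, 19 from low GFP and 2 from high GFP) had Stmn2 in 21 cells at 1738 CPM, and all 21 cells passed the neuron gate. The same cells held Sox10 in 18 and Foxd3 in 16, so glial and neuronal genes were found in the same barcodes. Its leading genes Lhx2, Emx1, Gng8, Gfy and Calb2 are known together from olfactory sensory neurons in the mouse, and Lhx2 was at 463 CPM in 16 cells. Over the 10 Schwann genes at 20 CPM or more in cluster 5, its levels were at a median of 27.3% (range 12.8 to 52.9) of those in cluster 5. Its summed neuron list had a median of 9214 CPM per cell, against 9639 in cells of the low GFP library that passed the neuron gate alone. Median depth was 46126 UMIs, 1.94 times the library median, against 22408 in those neuron gate cells, and the median doublet score was at percentile 93.0 of the library.

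Cluster 6 (8 cells, 5 from low GFP and 3 from high GFP) had the hair cell genes Espn in 8 cells at 1389 CPM and Pou4f3 in 8 at 147 CPM, and all 8 passed the hair cell gate. Aqp4 was in 8 of 8 cells at 600 CPM, Sparcl1 in 8 at 737 CPM and Gfap in 7 at 1130 CPM. Over the 18 astrocyte genes at 20 CPM or more in cluster 2, its levels were at a median of 38.0% (18.9 to 86.8) of those in cluster 2, where the genes were picked. Its summed hair cell list had a median of 3704 CPM per cell (1272 to 5147), against medians of 7978 in hair cells of the high GFP library and 6549 in those of the low GFP library. Depth was 2.23 times the library median, the doublet score was at percentile 97.0, and 4 of the 8 cells were removed when doublets were taken out, of 8 removed among all 107. The part of doublets in clusters 3 and 6 was not tested.

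**Figure D4:**
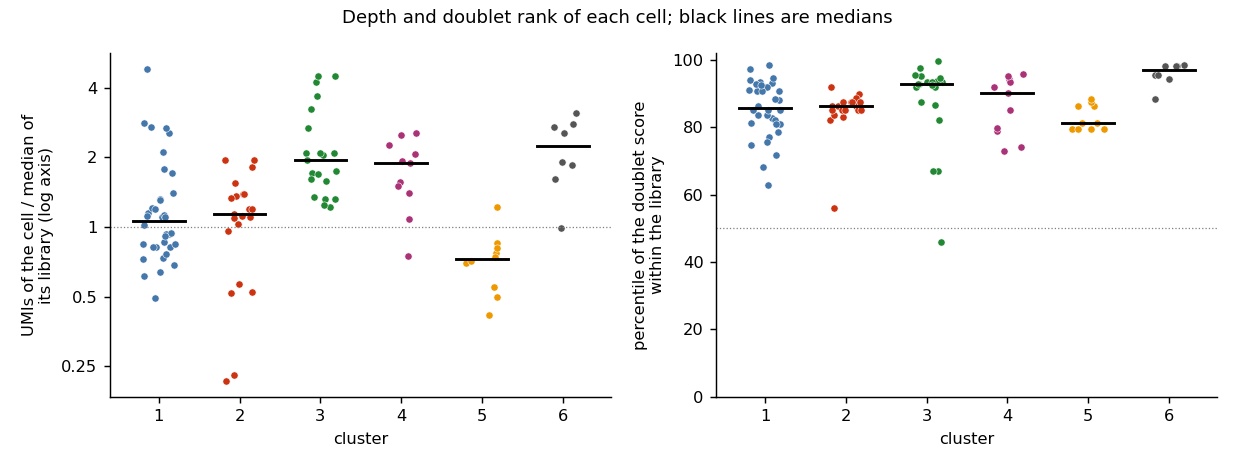
Left, the UMIs of each chosen cell divided by the median of its library, on a log axis; right, the percentile of its doublet score among all cells of its library; columns are clusters 1 to 6 and black lines are medians. Clusters 3, 4 and 6 are near or above 1.90 times the library median and cluster 5 is below 1, while the median percentile is between 81.3 and 97.0 in every cluster.

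All clusters had doublet scores in the upper part of their library. The median percentile was 85.7 in cluster 1, 86.4 in cluster 2, 90.2 in cluster 4 and 81.3 in cluster 5. Of the 8 cells removed as doublets, 4 were in cluster 6, 2 in cluster 3 and 2 in cluster 1.

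Between the sorted libraries, chosen cells with high GFP were higher than chosen cells with low GFP in 560 of 10766 genes (5.2%) and lower in 607 (5.64%). Egfp was at 5040 CPM with high GFP and at 1038 CPM with low GFP, which follows the sort. Atoh1, the hair cell factor whose name the reporter line carries, was at 107 CPM with high GFP, from 85 UMIs in 2 of 22 cells, and at 0.774 CPM with low GFP, from 2 UMIs in 74 cells. Those 2 high GFP cells, both in cluster 1, had 3 Fabp7 UMIs each and also held 1951 and 3920 Ccer2 UMIs. Of the 107 cells, 95 held an Egfp UMI and 6 an Atoh1 UMI. An Egfp UMI was also in 95.9% of the other cells with high GFP and in 83.4% of those with low GFP. Of the chosen cells, 86.4% and 90.5% held an Egfp UMI. Whether a UMI in a cell came from expression in that cell was not tested. The Egfp level of other cells was 4823 CPM with high GFP and 1310 CPM with low GFP, near the levels of the chosen cells. By cluster, Egfp was at 10830 CPM in the 7 high GFP cells of cluster 1 and at 2299 CPM in its 21 low GFP cells, against 36.3 and 12.7 CPM in the 6 high GFP and 4 low GFP cells of cluster 5. Those 7 cells had Fabp7 at 335 CPM, against 1434 CPM in the 21 low GFP cells. Their radial glia list had a median of 2172 CPM per cell, against 10271, and their neuron list 2199 against 372. Hair cells of the high GFP library had a radial glia median of 2194 CPM.

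**Figure D5:**
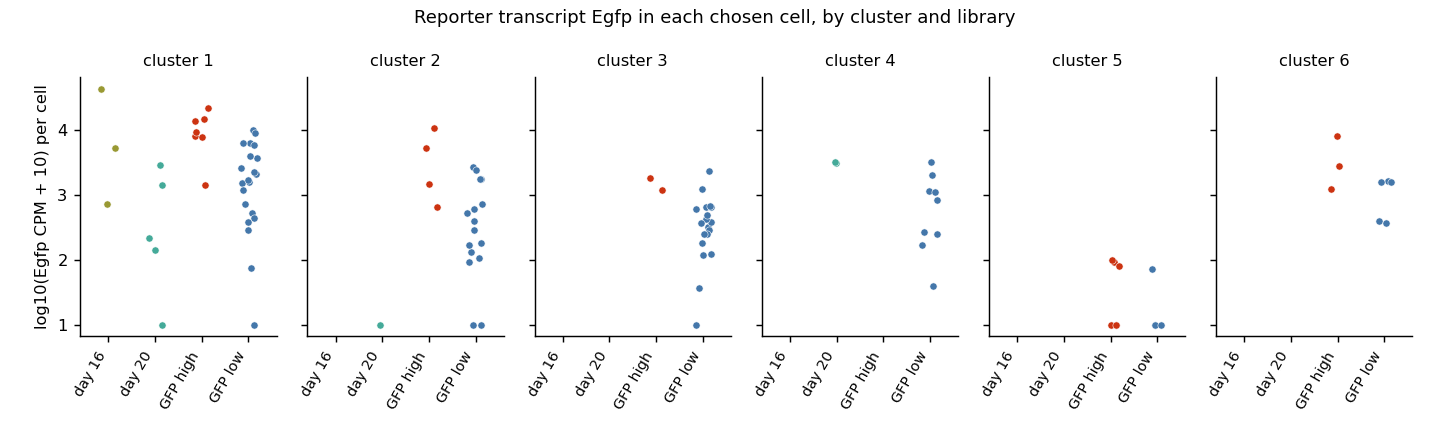
Each point is the Egfp level of 1 chosen cell as log10(CPM + 10), with the 4 libraries across each panel and the 6 clusters as panels; a cell with no Egfp UMI is at 1. Cells of cluster 5 lie at or below 2 in both libraries, and every high GFP cell of cluster 1 lies above 3.

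The sorted libraries held different clusters, and cluster genes were among those that differed. Cell cycle genes were lower with high GFP in 13 of 20 and higher in none, with a median log2 ratio of -2.16 beside -0.02 over all genes, and the high GFP library held no cell of the dividing cluster 4. Hmgb2, a chromatin protein of dividing cells, was at 249 CPM with high GFP and at 783 CPM with low GFP, and Dut, a nucleotide enzyme of DNA replication, at 30.1 and 138 CPM. Foxd3 was higher, at 122 CPM with high GFP and at 45.7 CPM with low GFP, where cluster 5 made up 6 of 22 and 4 of 74 cells. Clu, a secreted chaperone of astrocytes, was higher, at 345 CPM with high GFP and at 122 CPM with low GFP, and was found in 9 of 22 and 38 of 74 cells. The hair cell list gave 10 of 12 genes higher with high GFP, and neuron genes gave 5 of 13 lower. For these lists and the cell cycle list, the cells that were not chosen differed in the same direction. Their summed hair cell list was at 5819 CPM with high GFP and 1869 with low GFP, against 1605 and 450 in chosen cells. Their neuron list was at 1125 and 3376 CPM, against 2405 and 3842 in chosen cells. Their cell cycle list was at 358 and 789 CPM, against 362 and 1174 in chosen cells. Of the 20 astrocyte genes 2 were higher and none was lower, and of the 6 given markers none was called. The parts of cluster make-up and of the whole library in these differences were not tested.

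Between the early libraries, chosen cells at day 20 were higher than those at day 16 in 489 of 8940 genes (5.47%) and lower in 282 (3.15%). These counts rest on 8 cells at day 20 and 3 cells at day 16. No gene passed the rule for naming, which asks that the 5 cells with most UMIs of a gene hold less than 50% of its UMIs. So few cells can hardly meet that rule, so its outcome says nothing about the genes. Egfp was at 1612 CPM at day 20 and at 13913 CPM at day 16, where 1 of 3 cells held 1387 of 1646 UMIs. Aqp4 was in 5 of 8 cells at day 20 and in 1 of 3 at day 16. All 3 cells of day 16 and 5 of the 8 of day 20 fell in cluster 1.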

How the data were processed

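Single-cell RNA libraries were used as deposited: raw UMI counts per gene and barcode, written by cellranger 6.1.2 per the file headers. The mm10 build, Seurat 4.0.6 and Cell Ranger 6.1.0 come from the submitters' processing notes; the upstream filters on cells were not stated there. Members and gene lists were chosen with earlier results of these data known. Counts were summed over cells and scaled to CPM. A gene at 10 CPM or more in either group was called at a ratio of 2 or more with a 95% conditional binomial interval that excludes 1, in every library with 20 or more chosen cells; log2 ratios add 1 CPM. Shares have Clopper-Pearson intervals. The comparison gates were 5 UMIs of Elavl3, Elavl4 and Dcx (neuron), 10 of Pou4f3, Gfi1, Myo7a and Lhfpl5 (hair cell), 2 of Agr3 (supporting cell) and 30 of Col1a1, Col1a2 and Col3a1 (mesenchyme); cells used for comparison passed 1 gate alone and were not chosen. Chosen cells were clustered with Scanpy 1.11.5 (1500 variable genes, 15 components, 10 neighbours, Leiden resolution 0.5), and cluster leading genes were taken after values were seen, from genes in at least 40% of the cluster. Scrublet's automatic threshold marked 1, 78, 3 and 4 barcodes, so doublets were kept, and an alternative removed the highest scores at 0.8% per 1000 barcodes. Other alternatives were TMM factors (edgeR 4.0.16), means of per-cell CPM, no filter on low values, stricter gates and leaving out a library. Named genes were the given markers, Atoh1, Egfp, the 15 highest and 10 lowest called genes at 50 CPM and 30 UMIs or more whose 5 top cells hold under 50% of the UMIs, and list members with the largest ratios; other list members, and those lowest in their list or outside a call, were named after their values were seen. Some genes are not reported here. The calling was tested on simulated data.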

Additional observations from a re-analysis of the deposited data

Results flagged for a closer look

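In 5 genes the chosen cells were above the other cells with high GFP and below them with low GFP; the difference between the libraries was not tested. Values are the difference of the log2 ratios of chosen over other cells, high GFP minus low GFP. For Ccer2, which is on the list of Merkel cell genes, the difference was 7.93: 7473 CPM in chosen cells against 3272 in other cells with high GFP, and 17.8 against 2012 with low GFP, with 5871 of the 5951 chosen high GFP UMIs in 2 cells. For Krt20 it was 5.50, from 17 UMIs in 2 high GFP cells and 0 in the low GFP cells. For the collagen genes it was 2.94 in Col1a1, with 127 of 137 high GFP UMIs in 2 cells, and 5.21 in Col1a2, with 217 of 233 in 2 cells. For Twist1, a mesenchymal transcription factor, it was 3.49, with 12 of 16 UMIs in 2 cells.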

How the results depend on the processing

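The share of chosen cells in the low GFP library was 1.23% with cells thinned to 3000 UMIs, 93 shallower cells left out and thresholds of 1 UMI each, which changes depth and thresholds together. Leaving out a library gave 794 to 1618 genes higher and 920 to 1526 lower in chosen than in other cells. The highest counts came without the low GFP library, and the cause was not tested. Without cells in the neuron or hair cell gate, an alternative chosen after seeing the data, 1218 genes were lower. Against neuron gate cells in place of all other cells, the median log2 ratio was 2.53 for the radial glia list and 3.23 for the astrocyte list. Leaving out a library gave 0.65 to 0.90 for the radial glia list and 1.70 to 2.46 for the astrocyte list. No value reversed, and 69 of the other main values, with 316 of the single-gene values, kept their call. Atoh1 was called lower in chosen cells at 5 Fabp7 UMIs (-5.91), at 3 UMIs of the glial genes (-4.66), without the high GFP library (-4.35) and without cells in the neuron or hair cell gate (-5.69), and Tubb3 was called higher without the low GFP library (1.74). No paired analysis was possible because each group has 1 library. Precision is limited most at day 16 and day 20, with 3 and 8 chosen cells.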
